A study of Mus musculus with 3 samples.

Results

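The hedgehog signalling pathway was described through 9 genes taken by symbol from a table of 44625 mouse gene entries: the ligand Shh, the receptor Ptch1, the signal transducer Smo, the inhibitor Sufu, the transcription factors Gli1, Gli2 and Gli3, the decoy receptor Hhip and the co-receptor Gas1. All 9 were present, each with 1 entry. RNA with poly(A) tails had been sequenced in 3 libraries of 1 group: cells carrying integrin alpha6 and lacking Sca1, from the back skin of wild-type mice 56 days old, when hair follicles rest in the second telogen. The protocol names only an antibody to integrin alpha6, and it speaks of duplicate collections although 3 libraries are listed. Spreads and p-values below therefore measure differences between these libraries, which may in part be technical. A further group, named Bulge in the table, enters only through the authors' own comparison with it.

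Hedgehog ligands bind Ptch1, which in their absence keeps Smo inactive. Active Smo works through the primary cilium, an antenna of the cell surface, and releases the Gli factors from Sufu and from processing into repressors. Gli1, Ptch1 and Hhip are themselves transcribed when the pathway is active, and Ptch1 and Hhip then dampen it. In skin, Shh is known from the epithelium of the growing follicle and from sensory nerves at the upper bulge, and the pathway is needed for follicle growth and drives basal cell carcinoma.

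The libraries held 29283936 to 39198620 counts. They correlated at Pearson's r of 0.968 to 0.988 across log2(TPM + 1), where TPM is the count per gene length scaled to the same total in each library. Genes are not independent replicates, so these have no p. No pair agreed within counting noise (chi-square per degree of freedom of 33.6 to 180). Replicate 1 stood apart: 12.9% of the 13664 genes with a mean of at least 1 TPM differed there from both other libraries by more than 1 on the log2 scale in the same direction, against 1.68% in replicate 2 and 2.88% in replicate 3. All 7 listed hair follicle stem cell genes were detected, with Krt15 at 19607, 25612 and 24405 TPM in replicates 1 to 3. Ly6a, which encodes Sca1, had 3.16, 11.6 and 8.99 TPM. Of the 8 fibroblast genes 3 were detected, with a summed level of 21, 49.0 and 43.7 TPM, while Lum and Dpt had 0 counts in every library. Of the 8 dermal papilla genes 2 were detected, Wif1 and Crabp1, which made up nearly all of their sum of 129, 183 and 154 TPM, while Corin and Sox2 had 1 count each over the 3 libraries. The 6 Schwann cell genes summed to 6.19, 3.85 and 5.71 TPM, with Cdh19 at 0. Endothelial genes summed to at most 0.373 TPM, with 3 of 5 at 0. Of the remaining lists, 3 of 6 melanocyte, 2 of 6 immune cell, 5 of 6 growing follicle matrix and 4 of 6 sebaceous gland genes were detected.

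Every member but the ligand was detected. With detection set at 1 TPM or more in all 3 libraries, 8 of the 9 genes passed, against 27% of all entries. By mean level the order was Gas1, Smo, Gli1, Gli2, Ptch1, Sufu, Gli3, Hhip and Shh. The ranges over the 3 libraries overlapped for Smo and Gli1 and for Sufu and Gli3, so these neighbours did not differ beyond their spread. At the deposited gene lengths, the other neighbours in this order had ranges that did not overlap. In bulk RNA, fewer expressing cells and less RNA per cell cannot be told apart.

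**Figure D1:**
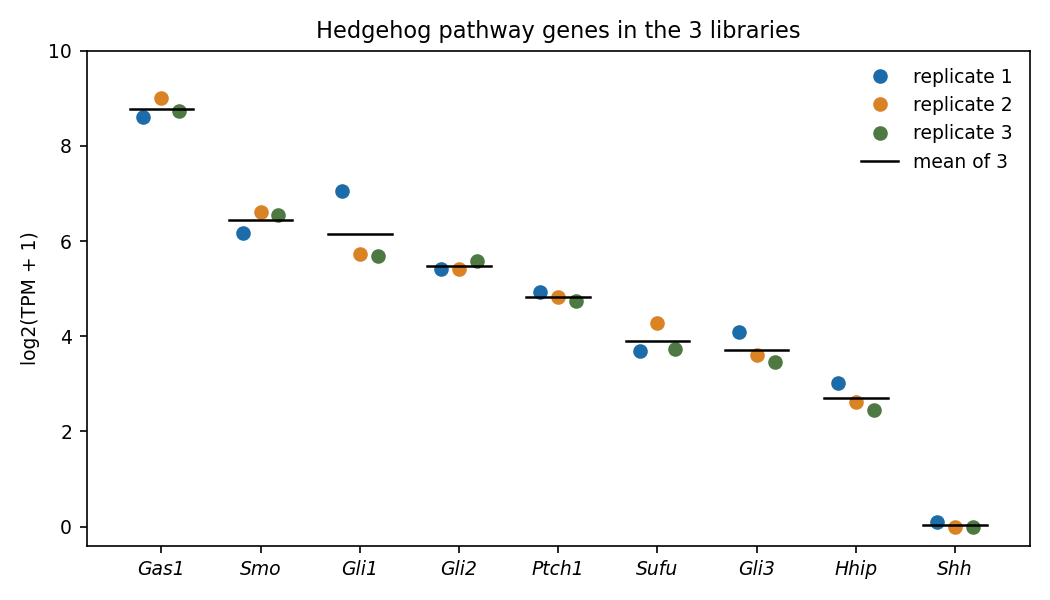
Level of each of the 9 genes as log2(TPM + 1), ordered by mean TPM, with 1 point per library and a line at the mean of the 3 log2 values. Gas1 lies above all others, Gli1 has a single high library (replicate 1), and Shh lies at or near 0.

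Shh, the secreted ligand, was at the edge of detection. It had 2, 0 and 0 counts in replicates 1 to 3, or 0.0652, 0 and 0 TPM. The exact 95% Poisson interval in replicate 1 ran from 0.00789 to 0.235 TPM, and the 0 counts allow up to 0.0770 and 0.0683 TPM in replicates 2 and 3 (3 counts). Such intervals cover counting error only. The 2 counts need not be Shh transcripts, since Shh shares 446 exon bases with 9530036O11Rik and 361 with Gm26894, both annotated on the opposite strand, and the use of strand in counting is not given in the sources used here. Gm26894 also had 2, 0 and 0 counts. Shh lies on chromosome 5 (GRCm38, 28456815 to 28467256, minus strand) and has 3 exons.

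The other ligands had higher means than Shh (0.0217 TPM), with 0.276 TPM for Ihh and 0.252 TPM for Dhh, but were also low. Ihh, the ligand known from cartilage and from sebaceous glands, had 17, 13 and 0 counts, and Dhh, known from Schwann cells, had 3, 18 and 3. Their highest levels were 0.517 and 0.556 TPM, so none of the 3 ligands reached 1 TPM in any library. Among genes for ligand release, Scube2, a secreted protein that helps hedgehog leave the cell, had 14.7, 17.0 and 20.2 TPM. Disp1, which exports the ligand, had 8.20, 6.75 and 5.98 TPM, and Hhat, which attaches palmitate to it, had 2.06, 2.86 and 2.11 TPM. Scube3 stayed at 0.371 to 0.675 TPM, and Disp2 had no count in any library, so that at most 0.0291 TPM is allowed by 3 counts.

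Gas1, a membrane-anchored co-receptor that helps Ptch1 bind the ligand, was the most abundant member. It had 386, 511 and 423 TPM, from 12333, 20720 and 19308 counts, a mean of 440.1 ± 64.1 (SD, n = 3). This placed Gas1 at the percentile of 98.1 among the 13664 genes with a mean of at least 1 TPM. Gas1 is a gene with a single exon on chromosome 13 (60174405 to 60177365, minus strand), and 589 of its exon bases are shared with Gm48488 on the other strand. The related co-receptors were also abundant. Boc had 258, 230.2 and 231 TPM and Cdon had 50.7, 69.3 and 60.7 TPM. All 3 co-receptors thus lay above Ptch1 in every library.

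Ptch1, the receptor itself, differed little between libraries. It had 29.5, 27.4 and 25.6 TPM, from 2780, 3282 and 3452 counts, a mean of 27.5 ± 1.95 (SD, n = 3). The difference of Gas1 from Ptch1 on the log2(TPM + 1) scale was 3.67, 4.17 and 3.99, a mean of 3.94 ± 0.26. Set against its ligand in the same libraries and at the deposited lengths, Ptch1 was 453-fold higher than Shh in replicate 1 (counting interval 125 to 3737), at least 356-fold higher in replicate 2 and at least 375-fold higher in replicate 3. Ptch1 lies on chromosome 13 (63508328 to 63573598, minus strand). Its deposited length of 8745 bases is shorter than the 14185 bases covered by the exons of its 10 transcripts in GENCODE M21. With the longer length the fold over Shh became 279 in replicate 1 (counting interval 77.2 to 2304), at least 219.6 in replicate 2 and at least 231 in replicate 3. The mean of Ptch1 became 17.0 TPM, and its range (15.8 to 18.2 TPM) then overlapped that of Sufu (10.8 to 16.6 TPM).

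Hhip, a membrane protein that traps the ligand, was the lowest detected member. It lies on chromosome 8 (79965851 to 80058006, minus strand) and has 13 exons. It had 7.13, 5.16 and 4.49 TPM, from 698, 641 and 628 counts, a mean of 5.59 ± 1.38 (SD, n = 3), at the percentile of 27.7. Gas1 exceeded Hhip by 5.57, 6.38 and 6.27 on the log2(TPM + 1) scale in replicates 1 to 3. Gpc3, a glypican that competes with Ptch1 for ligand, had 4.69, 5.78 and 5.93 TPM, while Lrp2, a large endocytic co-receptor, had 8, 0 and 5 counts. Gpc3 was thus close to Hhip in level, and Lrp2 was not detected.

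Of the 9 members, 3 had a value above 0 for the histone mark H3K27me3, which polycomb complexes place on repressed genes. The authors' deposited table gives a whole number per gene for it, whose unit and source cells are not given in the sources used here. In the authors' deposited table the value was 13109 for Shh, 7724 for Hhip and 6770 for Ptch1, and 0 for Smo, Sufu, Gli1, Gli2, Gli3 and Gas1. A value above 0 was held by 8.06% of all entries. Shh and its overlapping noncoding neighbours 9530036O11Rik and Gm26894 shared the value 13109, while no other gene of their chromosomes held the values of Ptch1 or Hhip. The median over the 3597 genes with a value was 7593, so that of Hhip lay just above it and that of Ptch1 below it.

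The members with a value differed in RNA level. Shh was at the edge of detection, whereas Ptch1 and Hhip were detected in every library. Among the 3597 genes with a value, 9.73% were detected in all 3 libraries. Only 62 of them, or 1.72%, had a mean level above that of Ptch1, and 189, or 5.25%, one above that of Hhip. Most other pathway genes with a value were low: of the 69 other listed genes, 12 had a value in the authors' deposited table, among them Ihh (16356), Dhh (3579), Zic1 (69873) and Foxf2 (45438). Of these 12, Gpc3 and Prdm1, the latter singled out after its values were seen, had a mean of at least 1 TPM. The labels do not say in which cells the mark was measured, so RNA and mark may come from different cells.

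**Figure D2:**
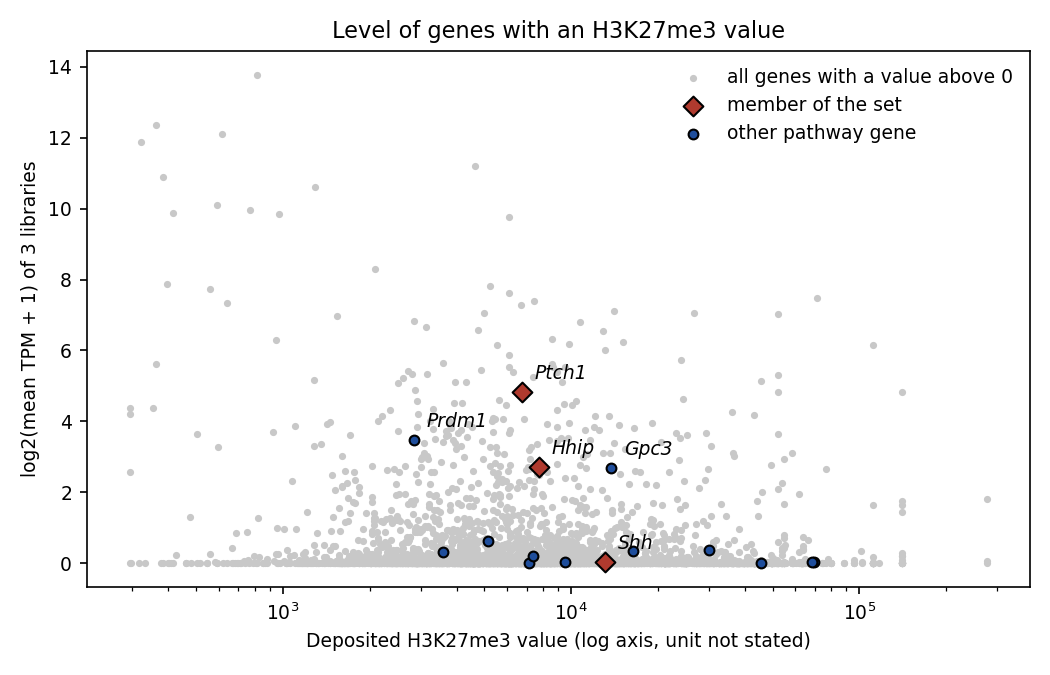
Deposited H3K27me3 value (horizontal log axis, unit not stated) against log2(mean TPM + 1) over 3 libraries (vertical axis) for the 3597 genes with a value above 0 (grey), with 3 members as diamonds and 12 other pathway genes as circles. Ptch1 and Hhip lie above most genes of similar value, and Shh lies at the bottom.

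Polycomb marks are known to settle on promoters rich in CG dinucleotides, so the promoter windows of marked and unmarked members are shown. RefSeq windows (GRCm38.p6) of 300 bases, from 250 before to 50 after a transcription start, were matched by symbol for 7 of the 9 members: Ptch1, Smo, Sufu, Gli2, Gli3, Hhip and Gas1. Windows of 4 members are printed 5′ to 3′ with every CG in capitals, for the marked genes Ptch1 (chr13:63565686-63565985, minus strand) and Hhip (chr8:80057959-80058258, minus strand), and for the unmarked genes Gli3 (chr13:15463473-15463772, plus strand) and Gas1 (chr13:60177486-60177785, minus strand).
Ptch1: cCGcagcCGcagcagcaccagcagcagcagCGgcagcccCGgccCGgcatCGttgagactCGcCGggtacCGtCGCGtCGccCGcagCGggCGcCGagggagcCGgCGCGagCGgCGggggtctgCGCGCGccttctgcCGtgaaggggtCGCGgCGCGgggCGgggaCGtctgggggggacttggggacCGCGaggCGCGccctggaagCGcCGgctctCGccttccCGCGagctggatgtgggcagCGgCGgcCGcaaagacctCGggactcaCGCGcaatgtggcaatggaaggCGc
Hhip: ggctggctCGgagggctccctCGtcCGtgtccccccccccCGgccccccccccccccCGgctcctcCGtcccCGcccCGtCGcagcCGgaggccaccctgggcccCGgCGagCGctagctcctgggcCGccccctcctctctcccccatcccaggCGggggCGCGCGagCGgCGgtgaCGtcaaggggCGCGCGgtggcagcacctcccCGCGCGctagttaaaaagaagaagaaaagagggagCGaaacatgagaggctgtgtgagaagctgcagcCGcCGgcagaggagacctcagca
Gli3: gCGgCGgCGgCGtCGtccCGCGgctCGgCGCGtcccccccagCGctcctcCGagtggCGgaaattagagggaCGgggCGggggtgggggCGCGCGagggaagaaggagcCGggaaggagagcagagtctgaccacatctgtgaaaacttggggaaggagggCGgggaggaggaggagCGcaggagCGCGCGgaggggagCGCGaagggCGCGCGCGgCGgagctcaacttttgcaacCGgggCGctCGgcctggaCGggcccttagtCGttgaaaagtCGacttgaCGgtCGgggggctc
Gas1: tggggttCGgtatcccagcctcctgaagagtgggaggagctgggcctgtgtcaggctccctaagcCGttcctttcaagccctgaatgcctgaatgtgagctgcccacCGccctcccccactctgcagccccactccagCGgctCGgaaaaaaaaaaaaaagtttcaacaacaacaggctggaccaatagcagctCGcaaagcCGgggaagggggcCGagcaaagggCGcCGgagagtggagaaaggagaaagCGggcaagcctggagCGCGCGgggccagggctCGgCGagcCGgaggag
The start used for Ptch1 lies 7863 bases inside the 5′ end of the gene in GENCODE, and that used for Gli3 lies 488 bases inside. The start used for Gas1 lies before the 5′ end, at -170 bases, so its window falls wholly outside the gene as annotated there.

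CG content did not separate marked from unmarked members. The window of Ptch1 held 47 CG dinucleotides, more than 98.6% of 32851 windows, and that of Hhip held 30. Yet unmarked Gli3 held 39 and unmarked Gli2 held 28, while Gas1 and Smo held 17 each and Sufu 12. The median over all windows was 7, so each of the 7 windows was above it. The Gli binding motif GACCACCCA, searched on both strands, was found in none of the 7 windows, also with 1 mismatch allowed. Among all windows 0.253% held it exactly and 6.74% with up to 1 mismatch.

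Smo, the seven-pass membrane protein that carries the signal inward, had the highest mean level after Gas1, with a range that overlapped that of Gli1. It had 70.8, 96.7 and 92.0 TPM, from 4289, 7441 and 7979 counts, a mean of 86.5 ± 13.8 (SD, n = 3), at the percentile of 89.6. Its replicate 1 was the lowest of the 3. Smo lies on chromosome 6 (29735503 to 29761365, plus strand). All 10 genes of signal transduction at the membrane and cilium were detected. Adrbk1, the older symbol of Grk2, a kinase of active Smo, had 61.1 ± 2.62 TPM. Evc2, part of a complex at the base of the cilium, had 24.7 ± 4.62 TPM, and Tulp3, which brings receptors into the cilium, had 19.1 ± 1.94 TPM. The lowest was Iqce with 6.81 ± 2.76 TPM (SD, n = 3 for each). All 17 listed cilium genes were detected too, from 2.66 TPM for Rpgrip1l to 75.6 TPM for Tmem107, with Ift52 at 42.6 TPM and Arl13b at 36.8 TPM.

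Sufu, which holds Gli proteins in the cytoplasm and lies on chromosome 19 (46396896 to 46488804, plus strand), was present at a lower level than Smo. It had 11.9, 18.4 and 12.4 TPM, from 894, 1747 and 1324 counts, a mean of 14.2 ± 3.60 (SD, n = 3). The difference of Sufu from Smo was -2.47, -2.33 and -2.80 on the log2(TPM + 1) scale. Among the 19 other regulators of Gli proteins 17 were detected. The most abundant were Prkar1a, a regulatory subunit of protein kinase A, with 147 ± 18 TPM, Spop, an adaptor for Gli degradation, with 143 ± 3.60 TPM, and Csnk1a1, a kinase that marks Gli proteins for processing, with 92.0 ± 6.98 TPM (SD, n = 3). At the other end, Zic1 had 0, 4 and 0 counts.

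The 3 Gli factors were all detected, in unequal amounts. Gli2, regarded as the main activator, had 41.4, 41.8 and 47.1 TPM, from 3065, 3932 and 4990 counts, a mean of 43.4 ± 3.18 (SD, n = 3). Gli3, regarded as the main repressor, had 16.0, 11.2 and 9.93 TPM, from 1652, 1471 and 1468 counts, a mean of 12.4 ± 3.19. Gli2 lies on chromosome 1 (118834132 to 119053619, minus strand) and Gli3 on chromosome 13 (15463235 to 15730026, plus strand). Gli3 was lower than Gli2 in every library, by -1.32, -1.81 and -2.14 on the log2(TPM + 1) scale.

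Gli1, the activator that is itself switched on by the pathway, varied most among the detected members relative to its mean (SD of 59.5% of the mean). It had 132, 52.0 and 50.5 TPM, from 5206, 2611 and 2855 counts, a mean of 78.1 ± 46.5 (SD, n = 3). Replicate 1 was thus far above the other two, which were close to each other. Without replicate 1 the mean was 51.3 TPM. Gli1 exceeded Gli3 in every library (Gli3 minus Gli1 of -2.97, -2.12 and -2.24) and also exceeded Ptch1 (Ptch1 minus Gli1 of -2.12, -0.90 and -0.95).

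The rank of Gli1 against Gli2 was less firm. Gli2 minus Gli1 was -1.65, -0.31 and -0.10 on the log2(TPM + 1) scale, a mean of -0.68 ± 0.84 (SD, n = 3), and -0.20 without replicate 1. The deposited length of Gli1 is 3665 bases, while its exons in GENCODE M21 cover 4995. With the GENCODE lengths the differences were -1.20, 0.13 and 0.34, so the sign then differed between libraries (mean -0.25, exact sign-flip p = 1). Gli1 lies on chromosome 10 (127329882 to 127341974, minus strand) and shares 62 exon bases with Arhgap9 on the other strand, which had 85, 98 and 73 counts, and 265 with Gm47200, also on the other strand.

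For each of the 8 differences between members that were tested, all 3 libraries had the same sign at the deposited lengths. The two-sided exact sign-flip permutation p was 0.25 for each, also after Benjamini-Hochberg adjustment over the 8, and 0.25 is the smallest p that 3 libraries allow.

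The high Gli1 of replicate 1 was not matched in size by Ptch1 or Hhip, also targets of the pathway. Replicate 1 minus the mean of the others was 1.35 for Gli1 on the log2(TPM + 1) scale, against 0.15 for Ptch1 and 0.48 for Hhip. The median over all genes with a mean of at least 1 TPM was 0.24, and 7.93% of them lay above Gli1. Gli1 was the only member among the genes that deviated in replicate 1 by the measure given above. In the other direction, Smo differed by -0.41, Sufu by -0.31 and Gas1 by -0.27. In the same library Fos, an immediate early gene named after its values were seen, was highest with 10120, 5406 and 4269 TPM, and all 5 proliferation genes were highest, with Mki67 at 6.71, 1.91 and 2.17 TPM. The summed level of the fibroblast genes was lowest there. The part of these differences in the level of Gli1 was not tested.

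**Figure D3:**
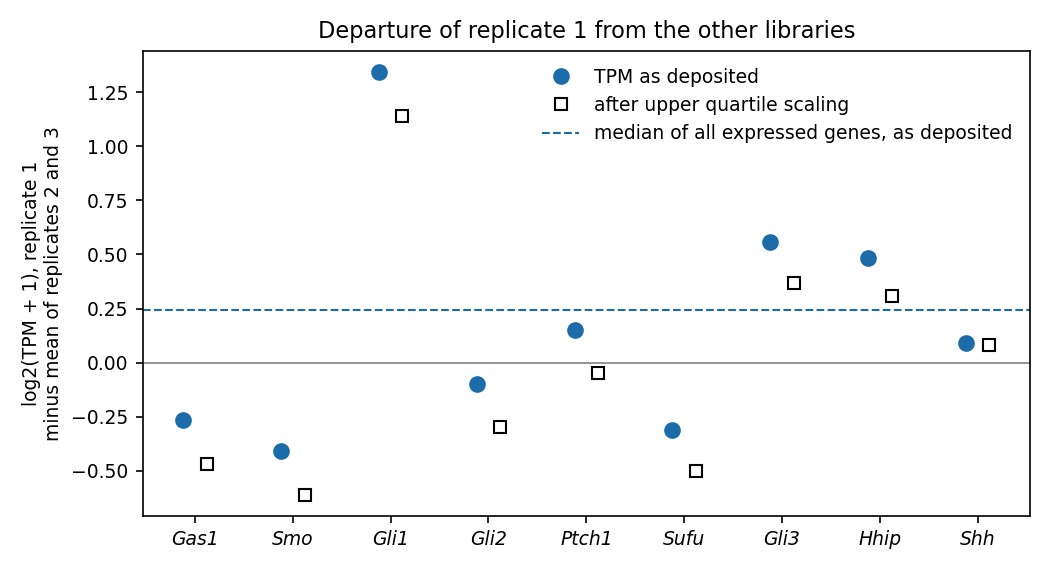
Level in replicate 1 minus the mean of replicates 2 and 3 for each member, on the log2(TPM + 1) scale, as deposited (filled circles) and after scaling to the upper quartile (open squares), with a dashed line at the median of all expressed genes. Gli1 stands at 1.35 and 1.14, and Ptch1 changes sign with the scaling.

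Of the 8 detected members 4 were highest in replicate 1 (Gli1, Gli3, Hhip and Ptch1), against 59.6% of all genes with a mean of at least 1 TPM. Scaling to the upper quartile lowered replicate 1 by a median of 0.13 on the log2 scale. It left 3 members highest there, Gli1, Gli3 and Hhip, against 45.8% of those genes. Of the cilium genes, 16 of 17 were highest in replicate 1 (15 of 17 after scaling), and their summed level was 392, 277 and 284 TPM.

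The authors also compared these libraries with those named Bulge, and positive values mean that a gene was higher in the 3 libraries described here. Gli1, Gas1 and Sufu were higher than in Bulge, and Gli2, Gli3 and Ptch1 lower. An adjusted p was given in the authors' deposited table for 8 members, and 6 of the 8 were under 0.05, against 55.5% of the 20274 genes with an adjusted p. Of these, 3 were higher (23.6% of all genes) and 3 lower (32% of all genes). The median log2 fold change in the authors' deposited table was -0.17 over the 8 members and -0.36 over all 20274 genes. Listed marker genes moved there too. Sebaceous gland genes gave 3 higher and 0 lower of 6, and dermal papilla and growing follicle matrix genes each 2 and 0 of 5. Hair follicle stem cell genes gave 2 higher and 3 lower of 7, and proliferation genes 0 and 3 of 5. In the other marker lists at most 1 gene was called in each direction. The part of such differences in the fold changes of the members was not tested.

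The Gli factors moved in different directions. In the authors' deposited table Gli1 had a log2 fold change of 2.12 (adjusted p = 3.10e-07), Gli2 of -0.59 (adjusted p = 0.0386) and Gli3 of -1.80 (adjusted p = 6.59e-20). Gli1 was thus higher, and both Gli2 and Gli3 lower, than in the Bulge libraries. This comparison includes the replicate 1 library with its high Gli1, and it was not refitted without it.

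The receptor and its helpers also split. In the authors' deposited table Gas1 had a log2 fold change of 0.91 (adjusted p = 0.000261) and Ptch1 of -0.97 (adjusted p = 4.59e-05). Boc had 0.54 (adjusted p = 0.0121) and Cdon had -0.91 (adjusted p = 0.000699) in the authors' deposited table. Thus Gas1 and Boc were higher, and Ptch1 and Cdon lower. The targets Gli1 and Ptch1 had fold changes of opposite sign. Hhip, with -0.38 (adjusted p = 0.182 in the authors' deposited table), did not pass the test, nor did Gpc3 with 1.03 (adjusted p = 0.0630).

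Inside the cell, Sufu was higher with a log2 fold change of 0.79 in the authors' deposited table (adjusted p = 0.0193). Smo did not pass, with 0.03 (adjusted p = 0.914 in the authors' deposited table). Shh, with a fold change of -0.22, has no adjusted p in the authors' deposited table, and Ihh (1.57, adjusted p = 0.346) and Dhh (-0.82, adjusted p = 0.587) did not pass. With a log2 fold change of at least 1 in size required as well, only Gli1 and Gli3 were called among the members, 2 of 8, against 46.3% of all genes.

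The authors also gave each gene a score, which equals the H3K27me3 value plus 1, times the log2 fold change, times the negative log10 of the adjusted p. The mark thus sets its size: in the authors' deposited table Ptch1 scored -28525 and Hhip -2146, while Gli1, with no mark value, scored 13.8 and Gas1 3.27. Hhip had this low score although its adjusted p did not pass, and Gli3, with the smallest adjusted p of the members, scored -34.5.

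**Figure D4:**
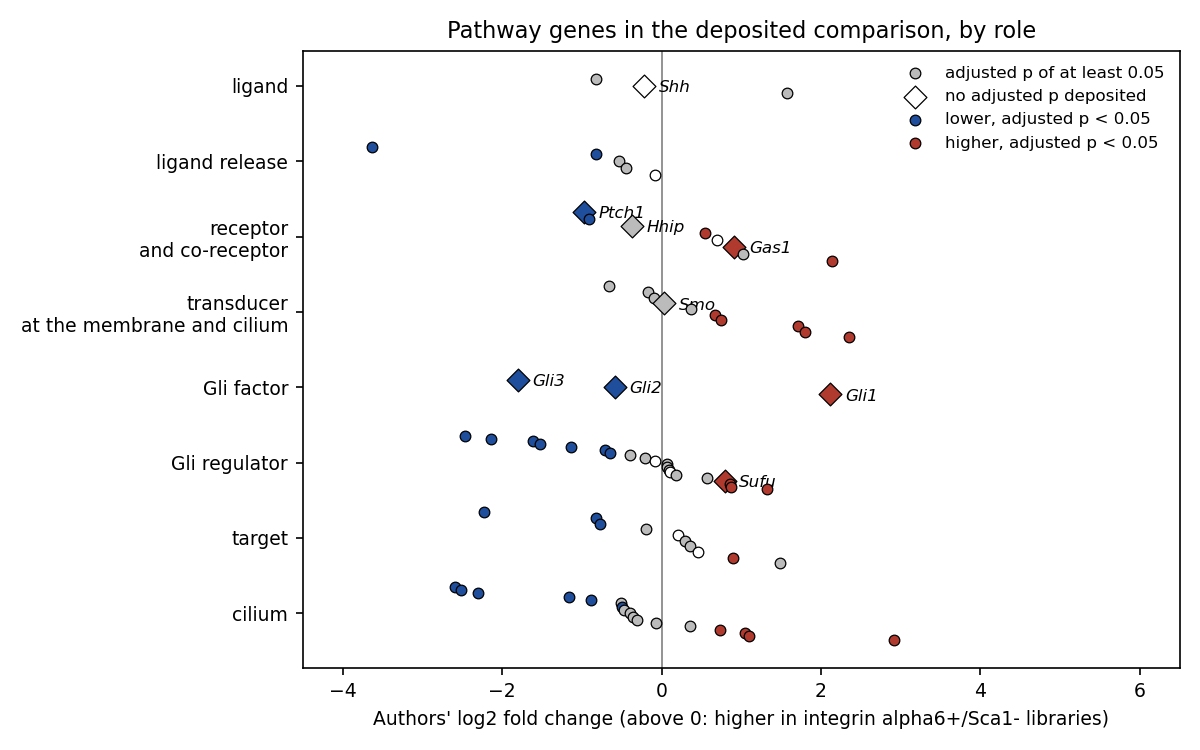
Log2 fold change in the authors' deposited table (horizontal axis, above 0 means higher in the integrin alpha6+/Sca1- libraries) for the listed pathway genes with a fold change, in rows by role. Diamonds are the 9 members and circles the other genes, and the colour gives the call at an adjusted p of 0.05. Gli1 lies at the right and Gli3 at the left of the members.

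The rest of the pathway was read in the same comparison from 69 further listed genes, of which 57 were detected. An adjusted p was given for 61 in the authors' deposited table, and 15 were higher, 19 lower and 27 not past 0.05, so 34 of 61 passed, a share near the background of 55.5%. Their median log2 fold change was -0.20. Of the 9 transducers other than Smo, 5 were higher and 0 lower, against 23.6% higher and 32% lower over all genes. Calls in either direction, 5 of 9, were thus near the background of 55.5%. Their median was 0.67, and the highest was Adrbk1 with 2.35 (adjusted p = 1.46e-18 in the authors' deposited table). The 17 Gli regulators other than Sufu with an adjusted p had 3 higher and 7 lower, not far from the same shares of 23.6% and 32%. Gsk3b, a kinase that phosphorylates Gli proteins on the way to their processing, had -2.46 (adjusted p = 1.90e-30) and Spopl, a relative of Spop, -2.14 (adjusted p = 5.13e-11) in the authors' deposited table.

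Genes listed as targets gave 1 higher and 3 lower among the 8 with an adjusted p, against 23.6% higher and 32% lower over all genes. Bcl2, an inhibitor of cell death, was lower with -2.23 (adjusted p = 2.02e-22 in the authors' deposited table), at a level of 8.16 ± 1.28 TPM. The most abundant target gene was Sostdc1, a secreted inhibitor of BMP and Wnt signals, with 511 ± 56.5 TPM, followed by Foxc1 with 71.9 ± 12.2 TPM and Ccnd1, a cyclin, with 51.1 ± 11.4 TPM (SD, n = 3). Foxf2 had no count in any library (limit of 0.118 TPM by 3 counts). Foxf1, Foxc2 and Foxl1 were not analysed here. Of the 4 ligand release genes with an adjusted p, 2 were lower and 0 higher (32% and 23.6% over all genes), and Scube3 had the lowest value, -3.63 (adjusted p = 2.33e-20 in the authors' deposited table). Among the 17 cilium genes 4 were higher and 6 lower, shares near the 23.6% and 32% over all genes. Their values ran from 2.92 for Tmem107 down to -2.30 for Dync2h1, -2.51 for Rpgrip1l and -2.59 for Cep290 in the authors' deposited table. Cep290 had 7.14, 1.53 and 1.39 TPM, and so stood highest in replicate 1.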

How the data were processed

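RNA was sequenced in 3 libraries of 1 group. Per the submitters' processing notes, FastQC, TopHat2, SAMtools, DESeq and DESeq2 and the builds mm10 and GRCm38 were used, with no versions, strand setting or role given. The authors deposited whole-number counts per gene (29283936 to 39198620 per library) and TPM values, per the file headers. TPM recomputed from counts and the deposited gene length differed by at most 4.72e-06. The log2 fold change, its adjusted p-value and a score per gene were also deposited by the authors, and how they were fitted is not given in the sources used here. The fold change is negative for 2555 of 2555 genes with 0 counts here, which settles its direction. Another 6 columns of per-sample values, named Bulge, match no listed sample and were not used.

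Members and lists were chosen with earlier results of these data known. All 9 members are named, then every ligand and receptor (1 gene is not reported here), and in each other role the 3 highest by mean TPM, the lowest, and genes with an adjusted p under 0.05 and a log2 fold change of at least 2 in size. No gene was ranked by likeness of pattern, since 3 libraries are too few. Of 81 listed pathway genes 78 were in the table, and of 64 marker genes 63. Levels were compared as log2(TPM + 1), which understates changes of low genes, with exact sign-flip tests in Python 3.11.15 (numpy 2.4.6, scipy 1.17.1). The TPM calculation was checked on simulated data, and the sign-flip test on short vectors with known answers. Positions and exons come from GENCODE M21 (GRCm38) by identifier, and 88.9% of 44392 deposited lengths equal its exon union. Alternatives were GENCODE lengths for the members, a pseudocount of 0.1, upper quartile scaling, leaving out mitochondrial genes or each library, other detection limits and other call limits.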

Additional observations from a re-analysis of the deposited data

How the results depend on the processing

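All 56 alternative values of the 8 differences between members had the sign of the reported value. Only those with the GENCODE exon length, added after seeing the data, could have changed it. The other settings keep the order of genes within a library, and all libraries already shared the sign, so leaving 1 out could not reverse it. With the GENCODE length Gli2 minus Gli1 kept its sign in the mean alone (-0.25), and its libraries differed in sign. Leaving out each library moved Gli2 minus Gli1 from -0.98 to -0.20, Ptch1 minus Gli1 from -1.54 to -0.93 and Ptch1 minus Shh from 4.78 to 4.83. A pseudocount of 0.1 TPM moved Ptch1 minus Shh from 4.80 to 7.86, since Shh is near 0. The 8 detected members were 7 at a limit of 5 TPM, and the 57 other pathway genes detected were 47. A log2 fold change of at least 1 in size was also required beside the adjusted p of 0.05. The calls in the authors' deposited table then fell from 6 to 2 of 8 members and from 34 to 19 of 61 other pathway genes. Over all genes with an adjusted p the share at this limit was 46.3%. At an adjusted p of 0.01 they were 4 and 25, and the share over all genes at that limit was not computed. Members with an H3K27me3 value were 2 of 3 at the median value or above. No paired analysis was possible because the libraries form a single group, so that their numbers pair no samples across groups, and the differences between members were already taken within each library. Among the pathway genes named here, depth limits the 3 ligands, Lrp2, Zic1, Disp2 and Foxf2, which rest on under 20 counts per library.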
